A study of Mus musculus with 12 samples.

Results

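The effect of PP242 on gene expression in NIH3T3 cells was taken from the 4 arrays of cells treated for 18 h with 2 µM PP242 and the 4 arrays of cells treated for 18 h with the solvent DMSO, 8 of the 12 arrays of the series. They were chosen by the treatment and time in the sample titles, and each array is 1 sample. NIH3T3 is an established line of mouse embryonic fibroblasts, grown here in serum-containing medium with antibiotics. The remaining 4 arrays held cells given 50 nM rapamycin, and they enter below only where a sentence says so. The treatment protocol gives the PP242 dose as 2 mM, whereas the design text and the sample characteristics give 2 µM, which is used here. The design text describes the 4 samples of a condition as separate experiments. A single dose and a single time were measured, in 1 cell line, and no drug-resistant mTOR or other control for the compound's targets is among these samples.

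PP242 competes with ATP at the mTOR kinase and so reaches both complexes in which the kinase works. mTORC1 promotes the making of proteins, nucleotides and lipids through the S6 kinases, the 4E-BP repressors of translation and transcription factors such as ATF4, HIF1 and SREBP, and it holds back autophagy and lysosome genes through ULK1 and TFEB. mTORC2 phosphorylates AKT and SGK kinases, and active AKT keeps the FoxO factors out of the nucleus. The series asks which transcripts answer to each complex, and PP242 against its solvent is the comparison in which both are inhibited.

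Values are given as the log2 signal of a gene minus the 75th percentile of its array, called its level, so 0 is a bright gene and a difference of 1 is 2-fold. The 8 arrays were not alike. On DMSO 1, 3 and 4 and PP242 2 and 3 the 75th percentile of the signal was 261 to 420 times the 25th, and 55.8% to 60.5% of probes were well above background. On DMSO 2, PP242 1 and PP242 4 this ratio was 13.6 to 51.1 and 78.0% to 96.2% of probes were well above background, so dim probes were higher there relative to the 75th percentile. The comparison was therefore made on all 8 arrays and again on the 5 arrays with a ratio of at least 100 (3 DMSO, 2 PP242), with 3 rapamycin arrays of the same kind adding to the estimate of the spread. Saturated spots were not found on any array. The number of arrays limits the precision. The median standard error of a log2 fold change was 0.22 on 8 arrays and 0.18 on 5, the set without the 3 arrays with raised dim probes.

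A second difference runs across the treatments. The arrays whose titles carry the number 4 stood apart from the others of their own group in the same set of genes. Among 7597 brighter genes measured on all arrays used, 52 differed at least 4-fold between DMSO 4 and the mean of DMSO 1 and 3, while 0 did so between DMSO 1 and DMSO 3, or between PP242 2 and PP242 3. In 48 of the 52 genes PP242 4 deviated to the same side from PP242 2 and 3 by at least 2-fold, and in 50 of them rapamycin 4 did so from rapamycin 1 and 2. Across the 7597 genes, which are not independent of one another, the deviation of DMSO 4 correlated with that of PP242 4 at Pearson r = 0.702 (Spearman rho = 0.600). This leaves out the dimmer genes and the other arrays with raised dim probes.

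**Figure D1:**
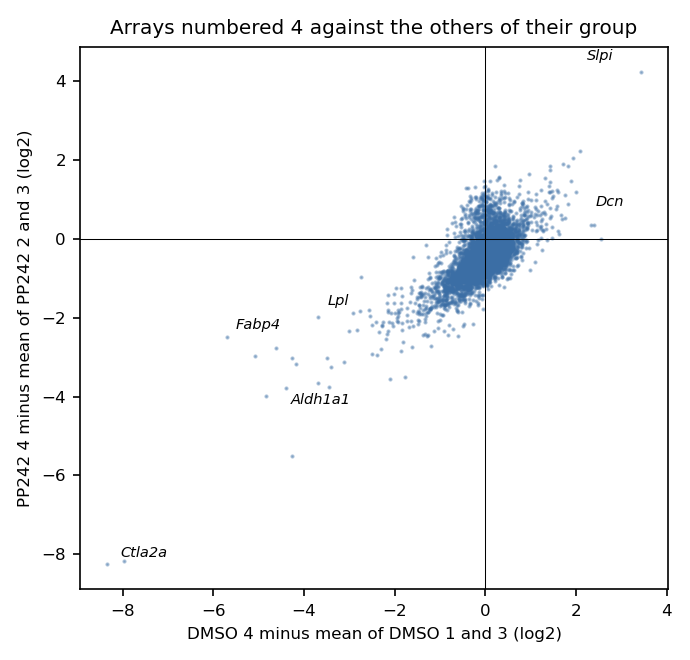
Deviation of DMSO 4 from the mean of DMSO 1 and 3 (x axis, log2) against the deviation of PP242 4 from the mean of PP242 2 and 3 (y axis, log2), 1 point for each of 7597 genes well above background on all 8 arrays and in the brighter part of the range. Of the 52 genes at least 4-fold from 0 on the x axis, 48 lie at least 2-fold to the same side on the y axis, as does Ctla2a at -8.34 and -8.26.

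The cells were checked against marker genes. All 12 listed fibroblast markers were above the filter, and the collagen gene Col1a2 and the filament gene Vim were among the brightest genes on every array (levels of 6.91 to 7.83 and 6.26 to 7.28). Postn, a matrix protein of fibroblasts, stood at -0.03, 0.07, 0.17 and -6.50 on DMSO 1 to 4 and at 0.53, 0.16, 0.60 and -2.99 on PP242 1 to 4. Lum, a collagen-binding proteoglycan, took the opposite course, at -3.26, -3.22, -3.09 and 1.87 with DMSO and -1.62, -1.76, -1.59 and 1.45 with PP242. Both arrays numbered 4 were thus low in Postn and high in Lum, whatever the treatment. Fabp4, a fatty acid carrier of fat cells, was at 2.24, 2.18, 2.20 and -3.48 on the DMSO arrays and 2.16, 2.26, 2.37 and -0.18 on the PP242 arrays, again low on both arrays numbered 4. Of 44 markers of blood cells, endothelium, epithelium, muscle, fat and neurons, 18 passed the filter on 5 arrays, and 2 of these were called, Csf1r and Tubb3, both lower. Passing it were 5 of 10 markers of macrophages and blood cells, 2 of 8 of endothelium and 3 of 8 of epithelium. So did 4 of 10 of muscle and fat and 4 of 8 of neurons. Epcam, Cdh1, Pecam1, Cdh5, Ptprc and Myod1, picked after their values were seen, were among the markers that did not pass. DMSO 4 is 1 of the 3 DMSO arrays in the 5-array comparison, which holds no PP242 array of that number, so each result below was also computed without the arrays numbered 4.

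On all 8 arrays 4021 of 19608 genes passed limma's test at an adjusted p of 0.05 (20.5%), 1639 higher with PP242 (8.36%) and 2382 lower (12.1%). On the 5 arrays 5321 of 18699 passed (28.5%), 2666 higher (14.3%) and 2655 lower (14.2%). Such genes are said to be called. Both comparisons called the same 3435 genes, 85.4% of the 8-array calls and 64.6% of the 5-array calls, and all 3435 had the same sign. Without the arrays numbered 4 the calls rose to 9550 of 18688 (51.1%), 27.4% higher and 23.7% lower, and 5272 of the 5321 genes kept call and direction. Called on 8 arrays, on 5 and on the 4 left were 3423 genes, 1425 higher and 1998 lower. Among the 8 arrays each slide held both groups. Among the 5, slide 1 held DMSO 1, DMSO 4 and PP242 2, slide 2 held PP242 3 and slide 3 held DMSO 3. Only slide 1 held both groups there, so slide and treatment cannot be fully told apart on the 5 arrays. With slide as a block the calls were 1518 on 8 arrays and 1760 on 5, where the block relies on the rapamycin arrays, which lay on all 3 slides. Of the 4021 genes called on 8 arrays, which were chosen on the same values, 3968 differed in the same direction within each of the 3 slides.

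Changes of at least 2-fold were called for 1013 genes upwards and 864 downwards on the 5 arrays, and changes of at least 4-fold for 186 and 107. Loss and gain were spread differently over the range of signal. In the top quartile of genes by level on the 5 arrays 22.4% were lower and 10.3% higher with PP242, whereas in the bottom quartile 4.93% were lower and 10.6% higher. The median log2 fold change of the quartiles, from dimmest to brightest, ran from 0.02 to -0.09 on 5 arrays and from 0.80 to -0.24 on 8 arrays. Dim genes thus appeared higher with PP242 once PP242 1 and PP242 4 were included, 2 of the 4 PP242 arrays with raised dim probes against 1 of the 4 DMSO arrays. Fgf2, a growth factor of fibroblasts, is a case: its levels were -3.90, -1.60, -4.04 and -4.15 with DMSO and -1.51, -5.13, -5.34 and -0.03 with PP242. It was called lower on the 5 arrays (log2 fold change -1.21 ± 0.12, adjusted p = 0.00114) and had a log2 fold change of 0.42 on 8. Of 5291 genes called on 5 arrays and tested on 8, 88 had the opposite sign on 8, among them the glycosyltransferase gene Mgat5b (-1.18 and 0.71).

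**Figure D2:**
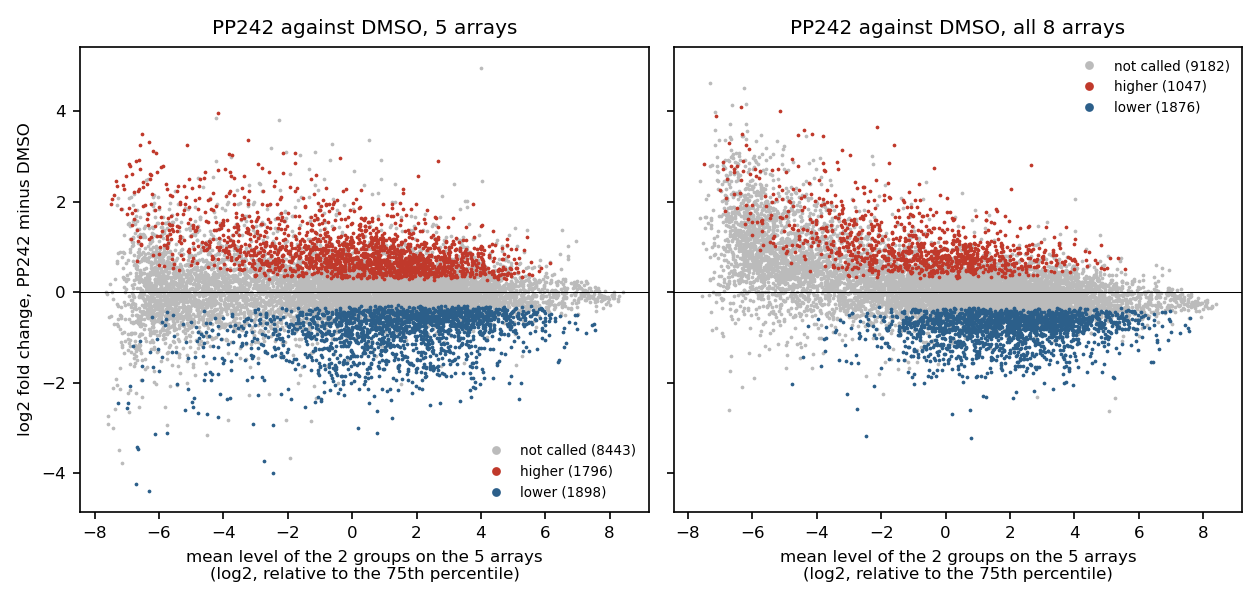
Log2 fold change of PP242 against DMSO (y axis) by mean level of the gene on the 5 arrays (x axis), 1 point a gene with a symbol, with genes called higher in red, called lower in blue and the rest in grey. On all 8 arrays (right) dim genes at the left lie above 0, and on the 5 arrays (left) they scatter around it.

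In what follows a log2 fold change is that of the 5 arrays with its standard error (2 PP242 and 3 DMSO arrays) and its adjusted p is limma's, after Benjamini-Hochberg adjustment across the genes tested. Named genes given as changed were also called in the same direction on all 8 arrays and without the arrays numbered 4, unless a sentence says otherwise. Counts of list members are to be read against the shares of all genes called higher and lower: 14.3% and 14.2% on 5 arrays, 8.36% and 12.1% on 8, and 27.4% and 23.7% without the arrays numbered 4. With every array centred on its median instead, no gene was called on 8 arrays (0, with 1392 at an unadjusted p under 0.05 in limma) and 3741 on 5. On the 8 arrays, but not on the 5, the direction of Castor1, Gstt1 and Per3 turned under quantile normalisation and that of Eif4a2, Gstt1, Nfkbia, Stat2 and Ulk2 under median centring.

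The largest rises among genes well above background on all 8 arrays with groups that did not overlap were in genes of a calcium-binding protein, a CDK inhibitor and other regulators. Groups did not overlap in 29.4% of all genes on 8 arrays. S100g, which encodes the calcium buffer calbindin-D9k, stood at -5.01, -4.18, -4.73 and -4.98 on DMSO 1 to 4 and at -1.43, -1.61, -1.46 and -1.85 on PP242 1 to 4. Every PP242 array was above every DMSO array by more than 2 units, and the fold change was 10.3 (log2 3.37 ± 0.22, adjusted p = 0.000332). Ypel1, of the Yippee family of small zinc-binding proteins, went from -3.56, -3.13, -3.33 and -3.02 with DMSO to -0.38, -0.21, -0.25 and -0.76 with PP242, 8.4-fold higher (adjusted p = 0.000323). Inca1, an inhibitor of cyclin A1 and CDK2, was dim with DMSO, at -5.33, -5.09, -5.35 and -5.35, and rose to -2.36, -2.32, -2.27 and -2.75. Tcp11l2 had levels of -2.06, -1.95, -1.74 and -1.77 and then 0.88, 1.00, 1.25 and 0.32. PP242 4 was the lowest PP242 array in each of these 4 genes, and still above all DMSO arrays. Txnip, a thioredoxin-binding arrestin that limits glucose uptake, was the only one of the 6 above 0 with DMSO, at 1.41, 1.34, 1.48 and 0.75 with DMSO and 3.73, 4.17, 4.04 and 4.27 with PP242 (log2 2.89 ± 0.22, adjusted p = 0.000468). Arhgef4, an activator of small GTPases, rose by 2.87 ± 0.28.

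By the same rule, the 6 largest falls were, in order, in Car6, Tfrc, Mthfd2, Cox6a2, Egr1 and Afp. Tfrc, the receptor that carries transferrin-bound iron into the cell, was at 2.69, 2.50, 2.83 and 1.49 on the DMSO arrays and at -0.58, -0.79, -0.74 and -1.23 on the PP242 arrays. DMSO 4 was the lowest of its group but still far above every PP242 array, and the log2 fold change was -3.10 ± 0.50 (adjusted p = 0.00573) and -3.52 without the arrays numbered 4. Mthfd2, the mitochondrial folate enzyme that feeds purine synthesis, was at 1.36, 1.16, 1.51 and 2.19 with DMSO and -0.91, -1.19, -1.43 and -0.95 with PP242. Egr1, a transcription factor induced by serum through ERK, was at 2.46, 2.41, 2.64 and 2.80 and 0.00, -0.18, -0.08 and 1.37. PP242 4 lay below every DMSO array but above PP242 1 to 3, which were close to 0. Car6, a secreted carbonic anhydrase, and Cox6a2, the muscle form of a cytochrome oxidase subunit, changed by -3.72 ± 0.51 and -2.90 ± 0.53. In both, DMSO 4 was the highest DMSO array by over 1 unit, and without the arrays numbered 4 the values were -3.15 and -2.34. Afp, alpha-fetoprotein, was dim throughout, at -3.41, -3.59, -3.71 and -3.22 with DMSO and -4.86, -6.08, -6.14 and -4.96 with PP242.

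**Figure D3:**
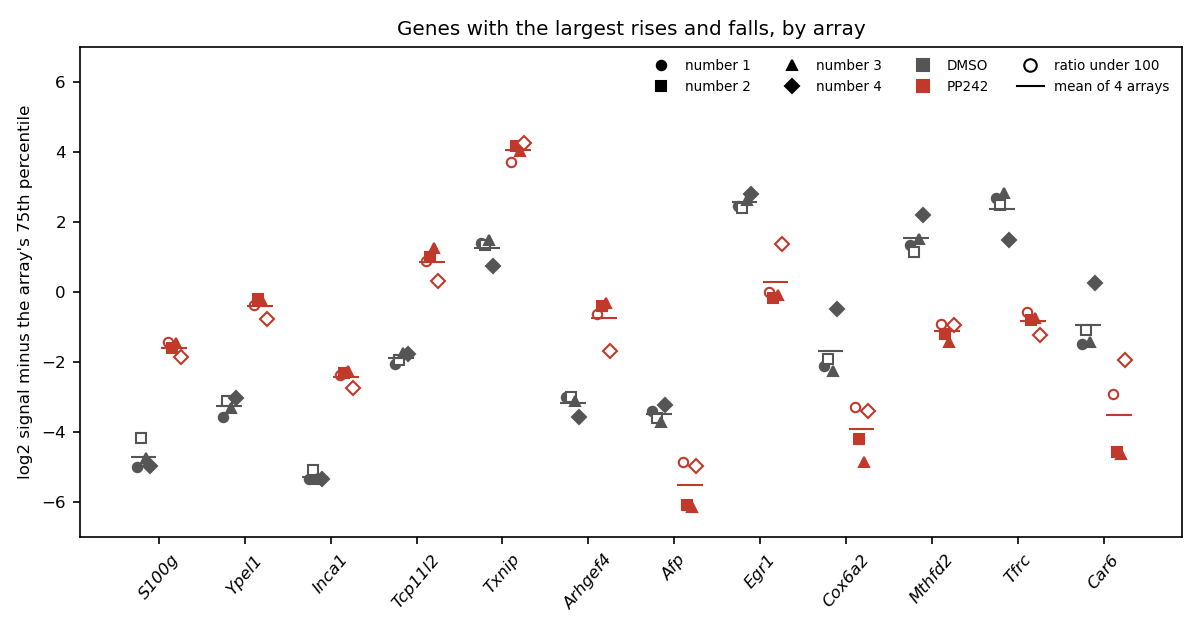
Levels on each of the 8 arrays (y axis, log2 signal minus the 75th percentile of the array) for the 6 genes with the largest rises and the 6 with the largest falls (x axis), with DMSO in grey, PP242 in red, a symbol for each number in the titles, open symbols for the arrays with a ratio under 100 and a bar at the mean of 4 arrays. In none of the 12 genes do the groups overlap.

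Genes of cell division were called lower almost without exception, and the promoters of 3 of them are shown because they carry the sequence elements for which cell cycle promoters are known. They are the 250 bases before the annotated start, 5′ to 3′ on the gene's strand, from RefSeq's GRCm38.p6 tables, with the matches in capitals. In Cdk1 (chr10:69352913-69353162, minus strand) and Ccnb1 (chr13:100786487-100786736, minus strand) the capitals mark the CCAAT box on either strand and, in Cdk1 alone of these, the letters TTTGAA. In Mcm5 (chr8:75109259-75109508, plus strand) they mark TTNGCGC, an E2F-type element, on either strand, where the 3 matches partly overlap.
Cdk1: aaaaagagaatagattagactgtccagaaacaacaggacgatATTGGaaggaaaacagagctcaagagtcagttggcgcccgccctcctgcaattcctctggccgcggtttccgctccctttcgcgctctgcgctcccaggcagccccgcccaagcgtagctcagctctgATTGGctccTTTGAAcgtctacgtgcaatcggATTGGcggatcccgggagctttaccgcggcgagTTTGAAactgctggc
Ccnb1: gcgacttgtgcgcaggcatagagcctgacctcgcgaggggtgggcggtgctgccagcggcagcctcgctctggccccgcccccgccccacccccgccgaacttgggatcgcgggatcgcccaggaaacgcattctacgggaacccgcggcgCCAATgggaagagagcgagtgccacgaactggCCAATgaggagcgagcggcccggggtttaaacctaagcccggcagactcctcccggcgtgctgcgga
Mcm5: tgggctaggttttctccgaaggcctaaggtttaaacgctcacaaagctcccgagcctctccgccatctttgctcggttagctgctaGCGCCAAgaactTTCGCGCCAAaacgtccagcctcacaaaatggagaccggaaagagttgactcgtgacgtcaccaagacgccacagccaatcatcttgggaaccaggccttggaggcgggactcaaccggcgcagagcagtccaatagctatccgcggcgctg
Over the 9730 tested genes with a symbol and a promoter in these tables, CCAAT was present in the 250 bases of 36.6%, in 45.0% of those called lower and in 35.4% of those called higher. In the mitosis list 30 of 43 promoters held it (69.8%) and in the replication list 28 of 43 (65.1%). It was also in 16 of 25 of the quiescence list (64.0%), 19 of 36 of the cilium list (52.8%) and 12 of 23 of the FoxO list (52.2%), lists with more members called higher than lower, so it is not particular to genes that fell. TTTGAA was in 10.9% of all, 25.6% of the mitosis list and 11.6% of the replication list. TTNGCGC was in 8.85% of all, 12.8% of those called lower, 11.6% of the mitosis list, 16.3% of the replication list and 19.5% of the ribosome biogenesis list. A match of these letters is a description of the window and not a measured binding site.

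Cdk1, the kinase that drives entry into mitosis, was at 3.96, 3.76, 3.86 and 3.69 on DMSO 1 to 4 and at 2.04, 2.01, 1.96 and 2.64 on PP242 1 to 4. Ccnb1, its cyclin B partner, was at 2.34, 2.31, 2.29 and 2.38 and 0.45, 0.35, 0.44 and 1.44. The groups were well apart in both, with PP242 4 the highest of its group, and they were 3.61-fold and 3.84-fold lower (adjusted p = 0.000323 for both). All 52 tested members of the mitosis list were called lower on the 5 arrays, against 14.2% of all genes, and 50 of 52 were on all 8 arrays. In RNA of whole cultures, fewer dividing cells and less of each transcript per cell cannot be told apart. Their median log2 fold change was -1.75, against -0.01 over all genes. The kinase gene Aurkb, of the chromosomal passenger complex, had the largest change among the named members, -2.45 ± 0.14. Kif23, a kinesin of the dividing bridge between daughter cells, changed by -1.92 ± 0.12. By array, the median difference of the list from the DMSO mean lay at -1.73, -1.78 and -1.66 on PP242 1 to 3 relative to all genes, and at -0.72 on PP242 4, the array with the lowest ratio of percentiles (13.6).

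DNA replication genes fell almost as uniformly: 52 of 53 were called lower on 5 arrays and 48 on 8, with a median of -1.29. Mcm5, a subunit of the replicative helicase, was at 4.51, 4.38, 4.53 and 5.05 with DMSO and 2.84, 2.75, 2.88 and 3.85 with PP242. The exonuclease gene Exo1 changed by -2.07 ± 0.10 and the licensing inhibitor Gmnn by -1.48 ± 0.09. Rpa1, a single-strand binding subunit, was the member not called on 5 arrays (-0.23 ± 0.34, adjusted p = 0.661). Its level on DMSO 4 deviated by -0.85 from the mean of DMSO 1 and 3. Without the arrays numbered 4 all 53 members were called lower, Rpa1 included. Upstream of them, 12 of 25 genes of the E2F and G1 cyclin list were lower and 1 higher. Ccne1, the cyclin E gene, was at 3.58, 3.44, 3.46 and 3.81 and 1.72, 1.77, 1.83 and 1.85, a 3.53-fold fall, and the pocket protein gene Rbl1 changed by -1.35 ± 0.08. Cdk4 was at 0.01 ± 0.09 (adjusted p = 0.948). Outside the lists, the genes with the lowest adjusted p among those that fell were Afp, Cks1b, a CDK subunit (-1.59 ± 0.08), Asf1b, a histone chaperone (-2.44 ± 0.11), Cip2a, an inhibitor of the phosphatase PP2A (-1.96 ± 0.11), and Depdc1b (-2.13 ± 0.10).

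Nuclear pore and transport genes fell with them, 23 of 35 on 5 arrays and 22 on 8, none higher, with a median of -0.63. Kpna2, an importin that carries cargo into the nucleus, was at 6.33, 6.27, 6.23 and 6.16 with DMSO and 4.27, 4.27, 4.21 and 4.70 with PP242. Every PP242 array lay more than 1 unit below every DMSO array, and the fall was 4.01-fold. Nup85, a scaffold nucleoporin, changed from 5.05, 5.21, 4.92 and 5.04 to 3.70, 3.80, 3.70 and 4.25. The exportins Xpot, for tRNA, and Xpo1, for proteins with a nuclear export signal, changed by -1.24 ± 0.09 and -1.02 ± 0.09. Ran, the GTPase that gives transport its direction, was not called (-0.48 ± 0.19, adjusted p = 0.105). Sorted by the letters of the symbol before the first digit, among stems with at least 15 tested genes, Nup had the highest share called lower (15 of 17, 88.2%), followed by Rad (10 of 18, 55.6%), Ints (7 of 15, 46.7%) and Kif (11 of 26, 42.3%). Rad18, a ubiquitin ligase of damage tolerance, changed by -1.89 ± 0.11, and Ints7, a subunit of the Integrator complex that processes small nuclear RNAs, by -0.92 ± 0.10.

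Of the chromatin modifiers 6 of 43 were higher and 9 lower on 5 arrays, the former a share close to that of all genes (14.3%) and the latter somewhat above it (14.2%). Hdac11, the sole class IV histone deacetylase, stood at -3.93, -3.90, -4.24 and -3.52 with DMSO and at -1.65, -1.30, -1.17 and -2.17 with PP242, a 6.32-fold rise. Ezh1, the Polycomb methyltransferase of resting cells, rose by 1.34 ± 0.15, and its paralogue of dividing cells Ezh2, named after its value was seen, changed by -1.001 ± 0.16. The H3K9 methyltransferase gene Suv39h1 changed by -1.49 ± 0.15. Suv39h2 was called lower on 5 arrays (-2.36 ± 0.09) and not on 8 (-1.54). Hmga1, an architectural protein, was at -0.21 ± 0.18 (adjusted p = 0.442).

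Part of the genes associated with quiescence and with FoxO rose. On 5 arrays 11 of 26 quiescence genes were higher and 0 lower, against 14.3% of all genes called higher, and the same numbers of calls upwards came from 8 arrays (11, with 1 lower). Mxd4, a MAX partner that represses growth genes, went from -1.79, -1.52, -1.70 and -1.39 with DMSO to 0.01, 0.13, 0.22 and 0.00 with PP242. The arrays of each treatment lay close together, and the groups were far apart. Its relative Mxd3, which is made in dividing cells, was called lower on 5 arrays (-1.76 ± 0.11) and not on 8, where PP242 4 stood at 0.44 against -1.58 on PP242 3. Ypel3, another Yippee gene, rose by 1.82 ± 0.16. Myc itself was at 0.32 ± 0.12 (adjusted p = 0.089) and the antiproliferative gene Btg1 at -0.26 ± 0.16 (adjusted p = 0.294).

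FoxO target genes were called higher for 11 of 26 and lower for 1 on 5 arrays, 7 and 1 on 8, with a median of 0.49. Bbc3 and Bcl2l11, which encode the pro-apoptotic BH3 proteins PUMA and BIM, rose by 1.32 ± 0.12 and 1.15 ± 0.17. Trim63, a muscle ubiquitin ligase, was not well above background on any of the 3 DMSO arrays and was at least 1.74-fold higher with PP242 (adjusted p = 0.000607). It was not called on 8 arrays. Such a bound compares the mean of the brighter group with the lowest signal that was well above background on the arrays of the other. A gene with a bound passed the filter on low values only through the group in which it is high, so its p rests on that selection. Bnip3, a mitophagy receptor that HIF1 also induces, was the member that fell (-1.22 ± 0.13). The antioxidant gene Sod2 was not called (0.22 ± 0.22, adjusted p = 0.496). Of the 13 tested BCL2 family genes 3 were higher and 1 lower, the effector gene Bak1 (-0.62 ± 0.13). In the p53 list 3 of 23 were higher on 5 arrays, among them the death receptor gene Fas (1.07 ± 0.16), and 5 lower, and the stress sensor Sesn2 was one of these. Without the arrays numbered 4 the p53 list had 14 genes lower and 4 higher, against 23.7% and 27.4% of all genes.

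Among the genes of mTOR's own complexes and of their regulators and sensors, the falls of Ddit4 and Sesn2 and the rise of Castor1 were the ones called on 8 arrays too. Of 35 tested, 6 were higher and 5 lower on 5 arrays, and 1 and 2 on 8 arrays. Ddit4, which encodes the mTORC1 inhibitor REDD1, was at 4.82, 4.89, 4.79 and 5.33 with DMSO and 2.86, 3.04, 2.85 and 2.93 with PP242. Sesn2, a leucine sensor that inhibits mTORC1, was at 1.31, 1.42, 1.23 and 1.08 and 0.28, -0.12, -0.29 and 0.53. Castor1, the arginine sensor, moved the other way, from -3.77, -3.72, -3.84 and -4.17 to -2.50, -2.55, -2.55 and -3.38. In these 3 genes the groups did not overlap, and the fold changes were 4.09-fold lower, 2.66-fold lower and 2.59-fold higher.

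The kinase gene Mtor was at -0.77, -0.96, -0.60 and -0.60 with DMSO and -0.41, -0.34, -0.26 and -0.90 with PP242. PP242 4 lay among the DMSO arrays, and the rise was called on 5 arrays (0.35 ± 0.10, adjusted p = 0.0421) and not on 8. Rictor, the defining subunit of mTORC2, was likewise called on 5 arrays (0.36 ± 0.11, adjusted p = 0.0464) and not on 8. Both calls depend on the processing: of the 24 other settings given at the end, 9 kept that of Mtor and 7 that of Rictor. Rptor, the counterpart of Rictor in mTORC1, was not called (-0.33 ± 0.15, adjusted p = 0.168), nor were Mlst8, shared by both complexes (-0.16 ± 0.10), Mapkap1 (-0.21 ± 0.13), Akt1s1 (0.23 ± 0.17), Rheb (0.07 ± 0.16) or Tsc1 (0.22 ± 0.20). Tsc2, which with Tsc1 restrains Rheb, was called higher on 5 arrays only (0.73 ± 0.12), as were Nprl2 (0.49 ± 0.08) and Nprl3 (0.53 ± 0.13) of the GATOR1 complex. Their partner Depdc5 was not well above background on either PP242 array of the 5 and was at least 2.03-fold lower (adjusted p = 0.00178), without a call on 8 arrays. It passed the filter on the 5 arrays only through the DMSO group, so its p rests on that selection. Deptor, Sesn3, Rragd and Fnip1 had standard errors of 0.24 to 0.96 and were not called.

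**Figure D4:**
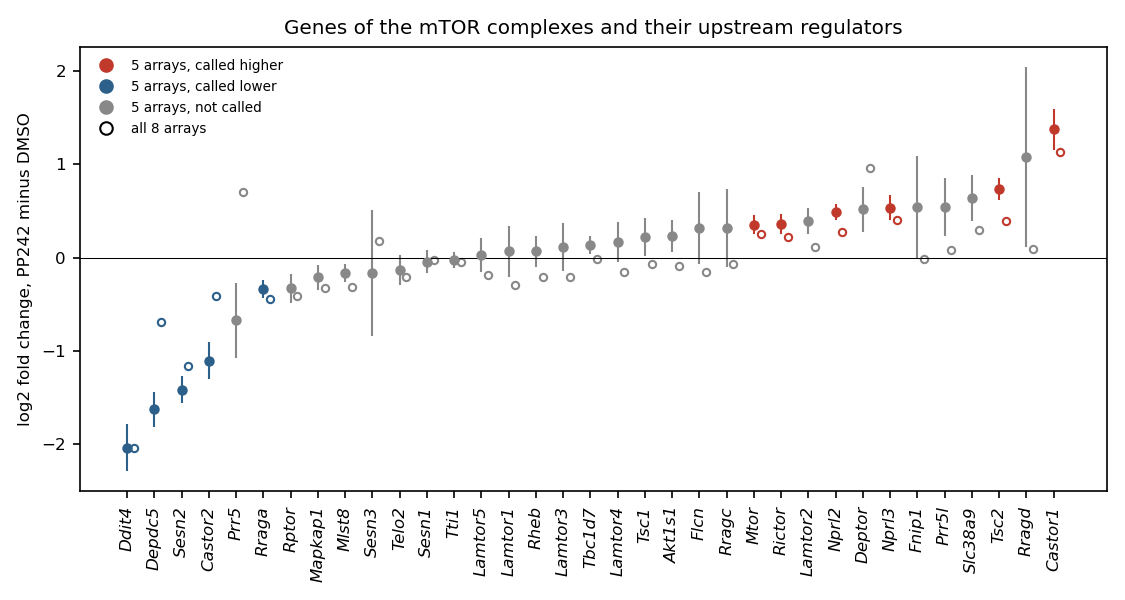
Log2 fold change of PP242 against DMSO (y axis) for 35 genes of mTORC1, mTORC2 and their regulators (x axis), with filled symbols and standard errors from the 5 arrays (red called higher, blue called lower, grey not called) and open symbols, in the colour of the 5-array call, from all 8 arrays. Ddit4 at the left was at -2.03 and Castor1 at the right was at 1.37.

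Below mTOR, 6 of 30 output genes were higher and 6 lower on 5 arrays, and 12 and 7 without the arrays numbered 4. Akt1 changed by -0.55 ± 0.09 (adjusted p = 0.00515). Akt2, named after its value was seen, was at -0.44 ± 0.13 (adjusted p = 0.0483), a call on 5 arrays that 7 of 24 other settings kept. Lpin1, a phosphatidate phosphatase that mTORC1 keeps out of the nucleus, rose by 1.05 ± 0.18, although its groups overlapped through PP242 4 and DMSO 4. Eif4e, the cap-binding protein, changed by -0.58 ± 0.09. Foxo1 and the AKT kinase gene Pdpk1 were called higher on 5 arrays only (0.55 ± 0.09 and 0.54 ± 0.08). Eif4ebp1, Rps6 and the SGK substrate gene Ndrg1 were not called (0.10 ± 0.23, 0.01 ± 0.13 and 0.91 ± 0.59).

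Among growth factor receptor and PI3K genes 5 of 26 were higher and 1 lower (Fgf2) on 5 arrays, and 1 was higher on 8. Egfr stood at -0.49, -0.48, -0.29 and -1.77 with DMSO and at 1.18, 1.40, 1.42 and -0.41 with PP242. Both arrays numbered 4 were the lowest of their group, and PP242 4 fell within the DMSO range. It was called on 5 arrays (2.26 ± 0.60, adjusted p = 0.0332) and was at 1.80 without the arrays numbered 4. Pik3ip1, an inhibitor of PI3K, and Pdgfrb, a PDGF receptor, were likewise called on 5 arrays only (1.46 ± 0.25 and 0.82 ± 0.17).

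Genes induced by ERK fell in 13 of 31 cases and rose in 1 on 5 arrays, and 7 fell on 8 arrays. Egr2 and Hbegf, the gene of an EGF receptor ligand, changed by -2.14 ± 0.27 and -1.12 ± 0.16. Ereg, another such ligand, was called lower on 5 arrays only (-2.70 ± 0.25). The inhibitors of differentiation that BMP signals induce fell together: Id1 was at 1.51, 1.35, 1.83 and 2.11 with DMSO and -0.46, -0.51, -0.42 and 0.70 with PP242. Id2 went from 3.16, 3.22, 3.33 and 3.25 to 1.57, 1.47, 1.73 and 2.54, and Id3 from 3.35, 3.46, 3.49 and 3.42 to 1.71, 2.01, 2.14 and 2.27. No PP242 array reached the DMSO range in any of the 3, and the falls were 4.86-fold, 3.12-fold and 2.54-fold. In the TGF-beta and Wnt list to which they belong 6 of 39 were lower on 5 arrays, a share close to that of all genes, and 2 higher. Without the arrays numbered 4 the counts were 10 lower and 13 higher, against 23.7% and 27.4% of all genes. Smad3 was called higher on 5 arrays only (0.77 ± 0.10), and the Wnt receptor gene Fzd2 was at 0.31 ± 0.17 (adjusted p = 0.218).

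The anabolic lists fell in part. ATF4 targets were lower in 20 of 33 cases and higher in 1 on 5 arrays, 21 and 1 on 8, with medians of -1.09 in both. The promoter of Asns (chr6:7693210-7693459, minus strand), which encodes asparagine synthetase, is shown for its match to TGATGNAA, the element that ATF4 recognises with CEBP partners, in capitals.
Asns: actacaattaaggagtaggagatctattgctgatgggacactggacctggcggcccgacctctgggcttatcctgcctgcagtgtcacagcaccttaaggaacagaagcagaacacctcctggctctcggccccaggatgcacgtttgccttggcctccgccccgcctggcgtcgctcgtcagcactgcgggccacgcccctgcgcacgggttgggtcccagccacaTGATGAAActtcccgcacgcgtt
These letters were present in 2.03% of all tested promoters and in 7 of 28 in the ATF4 list. Genes called lower held them in 2.24% of cases and genes called higher in 2.03%. The list was drawn up from ATF4 targets, so its share does not bear on the response to PP242. Asns was at 5.96, 5.87, 5.78 and 6.28 with DMSO and 4.56, 4.79, 4.80 and 4.39 with PP242, a 2.31-fold fall with DMSO 4 the highest array. The serine synthesis gene Psat1 changed by -1.90 ± 0.15 and the serine hydroxymethyltransferase gene Shmt2 by -1.54 ± 0.14. Slc38a2, an amino acid transporter that ATF4 can induce, was at 0.12 ± 0.13 (adjusted p = 0.543). Of the aminoacyl-tRNA synthetases 13 of 20 fell and 1 rose on 5 arrays; the bright Kars and Sars were not called (-0.06 ± 0.14 and -0.10 ± 0.22).

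Ribosome biogenesis genes fell in 28 of 46 cases on 5 arrays and 31 on 8, with 1 and 0 higher. Nolc1, a nucleolar chaperone, was at 3.38, 3.36, 3.39 and 3.31 with DMSO and 1.70, 1.84, 1.46 and 1.45 with PP242. The H/ACA protein gene Nhp2 changed by -1.25 ± 0.12, while the abundant nucleolar gene Npm1 was at -0.02 ± 0.14 (adjusted p = 0.946). Among the genes of the cytosolic ribosome itself, of 80, 1 was called on 5 arrays and 0 on 8 (0 lower in either), with medians of -0.02 and -0.15. That one was Rpl4, at 5.12, 5.16, 5.02 and 5.18 with DMSO and 5.23, 5.44, 5.48 and 5.19 with PP242, called higher only on the 5 arrays. The number of the 80 at an unadjusted p under 0.05 in limma was 1 on 5 arrays and 1 on 8. Mitochondrial ribosomal proteins were lower in 22 of 79 cases and higher in 2 on 5 arrays, 30 and 0 on 8, with Mrpl12 at -0.74 ± 0.09. Translation factors were lower in 11 of 47 and higher in 3: the hypusine-bearing factor gene Eif5a changed by -1.01 ± 0.10 and the helicase gene Eif4a2 by 0.85 ± 0.11.

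Part of the protein folding and degradation genes fell. In the proteasome list 23 of 41 were lower and 0 higher on 5 arrays, with a median of -0.38, and 26 were lower on 8. Psmd1, a scaffold of the regulatory particle, was at 3.14, 2.91, 3.13 and 3.24 with DMSO and 2.28, 2.32, 2.17 and 1.42 with PP242. Endoplasmic reticulum chaperones were lower in 10 of 24 cases, with Sdf2l1 at -1.32 ± 0.14 and Calr at -0.70 ± 0.09, and Canx was not called (0.13 ± 0.16). Of the heat shock genes 5 of 26 were lower on 5 arrays and 9 on 8, with the HSP90 co-chaperone gene Ahsa1 at -0.70 ± 0.09, and the abundant Hsp90ab1 and Hspa8 were not called (0.09 ± 0.14 and 0.01 ± 0.19). Among CCT and prefoldin genes 6 of 15 were lower, and the 4 of lowest adjusted p were prefoldin genes, such as Pfdn6 (-0.97 ± 0.10), and Cct2 was at 0.09 ± 0.11 (adjusted p = 0.591). Mitochondrial import genes were lower in 15 of 28 and higher in 1, among them Timm8a1 (-1.07 ± 0.11). In oxidative phosphorylation 8 of 62 were lower and 3 higher on 5 arrays, with Cycs, cytochrome c, at -1.07 ± 0.11. The share called lower was close to that of all genes (14.2%). Without the arrays numbered 4 the counts were 19 lower and 3 higher, against 23.7% and 27.4% of all genes.

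Sugar and nucleotide pathways fell in part. Glycolysis genes were lower in 12 of 25 and higher in 1 on 5 arrays, hypoxia-inducible genes in 11 of 23 and 0, and nucleotide synthesis genes in 18 of 31 and 0. The glucose transporter gene Slc2a1 changed by -2.10 ± 0.21, the adenylate kinase gene Ak4 by -2.26 ± 0.09 and the thymidine kinase gene Tk1 by -2.30 ± 0.08. Gapdh and Aldoa, among the brightest genes, were not called (-0.31 ± 0.15 and -0.20 ± 0.17), nor was Hif1a (-0.13 ± 0.15). Without the arrays numbered 4 the hypoxia list had 5 genes called higher as well as 13 lower, and its median went from -0.75 to -0.47. In the pentose phosphate and redox list 10 of 29 were lower, such as Nqo1 (-1.70 ± 0.27), and 3 higher, such as the glutathione transferase gene Gstt1 (1.02 ± 0.10).

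Some catabolic mitochondrial genes rose. Fatty acid oxidation genes were higher in 9 of 28 cases and lower in 0 on 5 arrays, 3 and 0 on 8, and 14 and 1 without the arrays numbered 4. Cpt1a, the rate-limiting carnitine palmitoyltransferase, stood at 3.34, 3.28, 3.45 and 2.99 with DMSO and at 4.43, 4.70, 4.76 and 3.44 with PP242. PP242 4 lay at the top of the DMSO range and PP242 1 to 3 clearly above it (log2 1.47 ± 0.22, adjusted p = 0.00437). Ech1, a peroxisomal and mitochondrial isomerase, rose by 1.01 ± 0.12, and Acadm was called on 5 arrays only (0.68 ± 0.09). Branched-chain amino acid catabolism was higher in 8 of 23 and lower in 1. Bckdha, a subunit of the dehydrogenase that commits these amino acids to breakdown, went from 2.25, 2.32, 2.29 and 2.39 to 3.69, 3.91, 4.00 and 3.48. Aldh6a1, an enzyme of the valine branch, went from -0.11, -0.17, 0.01 and 0.04 to 1.62, 1.92, 1.94 and 1.09. The one fall was in Bcat1, the cytosolic transaminase of the first step, from 2.99, 2.72, 2.97 and 3.13 to 1.39, 1.47, 1.06 and 1.41. None of these 3 genes had overlapping groups.

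In lipid synthesis Acacb, the acetyl-CoA carboxylase at the mitochondrial surface, stood out at -3.43, -3.03, -3.28 and -3.74 with DMSO and -0.72, -0.88, -0.79 and -1.13 with PP242, 6.26-fold higher. The rest of the list was mostly not called (2 of 28 higher, 3 lower on 5 arrays), with Fasn at -0.09 ± 0.19 (adjusted p = 0.769). Without the arrays numbered 4 the counts were 8 higher and 13 lower. Sterol synthesis genes were called in 2 of 25 cases on 5 arrays, 1 in each direction, and in 13 without those arrays, 6 higher and 7 lower, close to the 51.1% of all genes called there. Msmo1, the brightest named member, was at 0.04 ± 0.28 (adjusted p = 0.934). In the iron list Tfrc and Alad (-0.60 ± 0.09), an enzyme of haem synthesis, fell, and the ferritin genes Fth1 and Ftl1 were not called (-0.34 ± 0.18 and 0.15 ± 0.37). For polyamines, the spermidine synthase gene Srm changed by -1.05 ± 0.14 and Azin2, an antizyme inhibitor, by 1.52 ± 0.21, while Odc1 was not called (-0.26 ± 0.14).

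The counts of lysosome and autophagy genes called changed with the arrays numbered 4. Of 44 lysosomal genes 5 were higher and 0 lower on 5 arrays, no larger a share than that of all genes, and 2 and 1 on 8. Without those arrays 21 were higher and 4 lower. The median difference of the list from the DMSO mean, relative to all genes, was -0.62 on DMSO 4 and -0.78 on PP242 4, and between 0.16 and 0.53 on the other 6 arrays. Vacuolar ATPase genes showed the same low position on DMSO 4 (-0.62) and PP242 4 (-1.03), with 1 of 18 called on 5 arrays, Atp6v0e2 (1.85 ± 0.22). Called in every comparison were Idua and Ctso, an iduronidase and a cathepsin, with Idua at -4.04, -3.54, -3.91 and -4.78 and -2.39, -2.30, -2.11 and -2.14. The progranulin gene Grn and the cathepsin gene Ctsl were not called (-0.12 ± 0.23 and -0.03 ± 0.15).

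Autophagy genes were higher in 10 of 35 cases and lower in 2 on 5 arrays, 9 and 1 on 8, and 23 and 4 without the arrays numbered 4. Calcoco1, a receptor for the autophagy of the endoplasmic reticulum, stood at -2.90, -2.67, -2.76 and -2.94 with DMSO and at -0.75, -0.59, -0.53 and -1.09 with PP242, and its groups were far apart (4.94-fold, adjusted p = 0.000304). Ulk2, an initiating kinase, and Atg10, a conjugating enzyme, rose by 0.76 ± 0.09 and 1.50 ± 0.19. Sqstm1 and Gabarapl1 were not called on 5 arrays (0.84 ± 0.43 and 0.58 ± 0.19), and were called higher without those arrays (0.53 and 0.42).

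Some interferon response genes rose: 14 of 38 were called higher and 0 lower on 5 arrays, 12 and 0 on 8, with 9 genes shared. Without the arrays numbered 4 the counts were 24 and 6. Stat2, a subunit of the interferon-activated factor ISGF3, is shown because its promoter (chr10:128270248-128270497, plus strand) holds GAAA, 2 bases of any kind and GAAA again, the core of the interferon-stimulated response element, in capitals on the opposite strand.
Stat2: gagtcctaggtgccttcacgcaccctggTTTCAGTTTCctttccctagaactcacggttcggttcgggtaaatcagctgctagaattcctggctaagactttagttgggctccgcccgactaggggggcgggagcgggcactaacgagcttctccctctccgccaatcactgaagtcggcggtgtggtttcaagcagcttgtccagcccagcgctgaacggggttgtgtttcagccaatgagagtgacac
This core was in 2.64% of all tested promoters and in 10 of 31 of the interferon list (32.3%). It was in 2.10% of the genes called higher and 2.82% of those called lower, so it is not particular to genes that rose. Stat2 was at -0.70, -0.65, -0.71 and -0.92 with DMSO and -0.08, 0.13, 0.04 and -0.33 with PP242, a small rise without overlap (0.86 ± 0.11, adjusted p = 0.00222). Trim21, an antibody receptor in the cytosol, went from -2.75, -2.93, -2.62 and -2.77 to -1.73, -1.78, -1.72 and -1.95. Parp14, an ADP-ribosyltransferase, changed by 1.03 ± 0.11. Tap2, of the peptide transporter for class I antigens, was called higher (1.03 ± 0.11) although its groups overlapped: DMSO 2, at -0.19, lay above PP242 2, at -0.27. The class I genes H2-D1 and B2m were not called (0.30 ± 0.28 and 0.16 ± 0.20). In the list of chemokines, cytokines and NF-kB feedback genes 2 of 20 were higher and 3 lower on 5 arrays, with a median of -0.17. The sign of the median was not stable: it was 0.25 on 8 arrays, with 3 of 22 higher and 1 lower, and 0.05 without the arrays numbered 4, with 9 higher and 9 lower. The 2 called higher on 5 arrays were Nfkbia (0.99 ± 0.10) and Nfkb2 (1.18 ± 0.17), and Ccl2 was not called (-0.11 ± 0.20). Il33, an alarmin, was not well above background on either PP242 array of the 5 and was at least 3.39-fold lower (adjusted p = 0.00483), without a call on 8 arrays. Here too the filter on the 5 arrays was passed only through the DMSO group, and the p rests on that selection.

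Primary cilium genes were higher in 15 of 42 cases and lower in 2 on 5 arrays, 11 and 2 on 8, with a median of 0.09. The primary cilium is the sensory antenna that cells grow when they stop dividing. Bbs4, of the BBSome coat, stood at -0.63, -0.49, -0.74 and -1.01 with DMSO and at 0.61, 0.67, 0.76 and 0.45 with PP242. Wdr19 and Ift81, of the transport complexes IFT-A and IFT-B, rose by 1.27 ± 0.11 and 1.29 ± 0.13. All PP242 arrays lay above all DMSO arrays in these 3 genes. The hedgehog transducer gene Smo and Ift27 were not called (-0.25 ± 0.20 and 0.19 ± 0.11).

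Among collagens and matrix genes 4 of 34 were higher and 5 lower on 5 arrays, shares close to those of all genes (14.3% and 14.2%). Without the arrays numbered 4 the counts were 13 and 7, against 27.4% and 23.7% of all genes. Thbs2, a matricellular thrombospondin, rose by 1.08 ± 0.15. The basement membrane collagen Col4a1 and the collagen-modifying enzymes P4ha2 and Plod2, which are hypoxia-inducible, changed by -0.86 ± 0.16, -0.81 ± 0.14 and -0.94 ± 0.18. The abundant Col1a2 and Sparc were not called (0.04 ± 0.16 and 0.23 ± 0.11). Matrix proteases Adamts1 and Adamts2 rose by 1.62 ± 0.16 and 1.48 ± 0.22. Actin and SRF target genes were called in 2 of 27 cases on 5 arrays, among them Tagln2 (-0.85 ± 0.09), and in 14 without the arrays numbered 4, close to the 51.1% of all genes called there. Acta2, smooth muscle actin, was at 6.95, 6.91, 6.91 and 4.38 with DMSO and 6.48, 6.54, 6.42 and 4.69 with PP242, low on both arrays numbered 4. In the clock list Per3 rose (1.17 ± 0.14), and Cry1 was called lower on 5 arrays only (-1.24 ± 0.26).

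**Figure D5:**
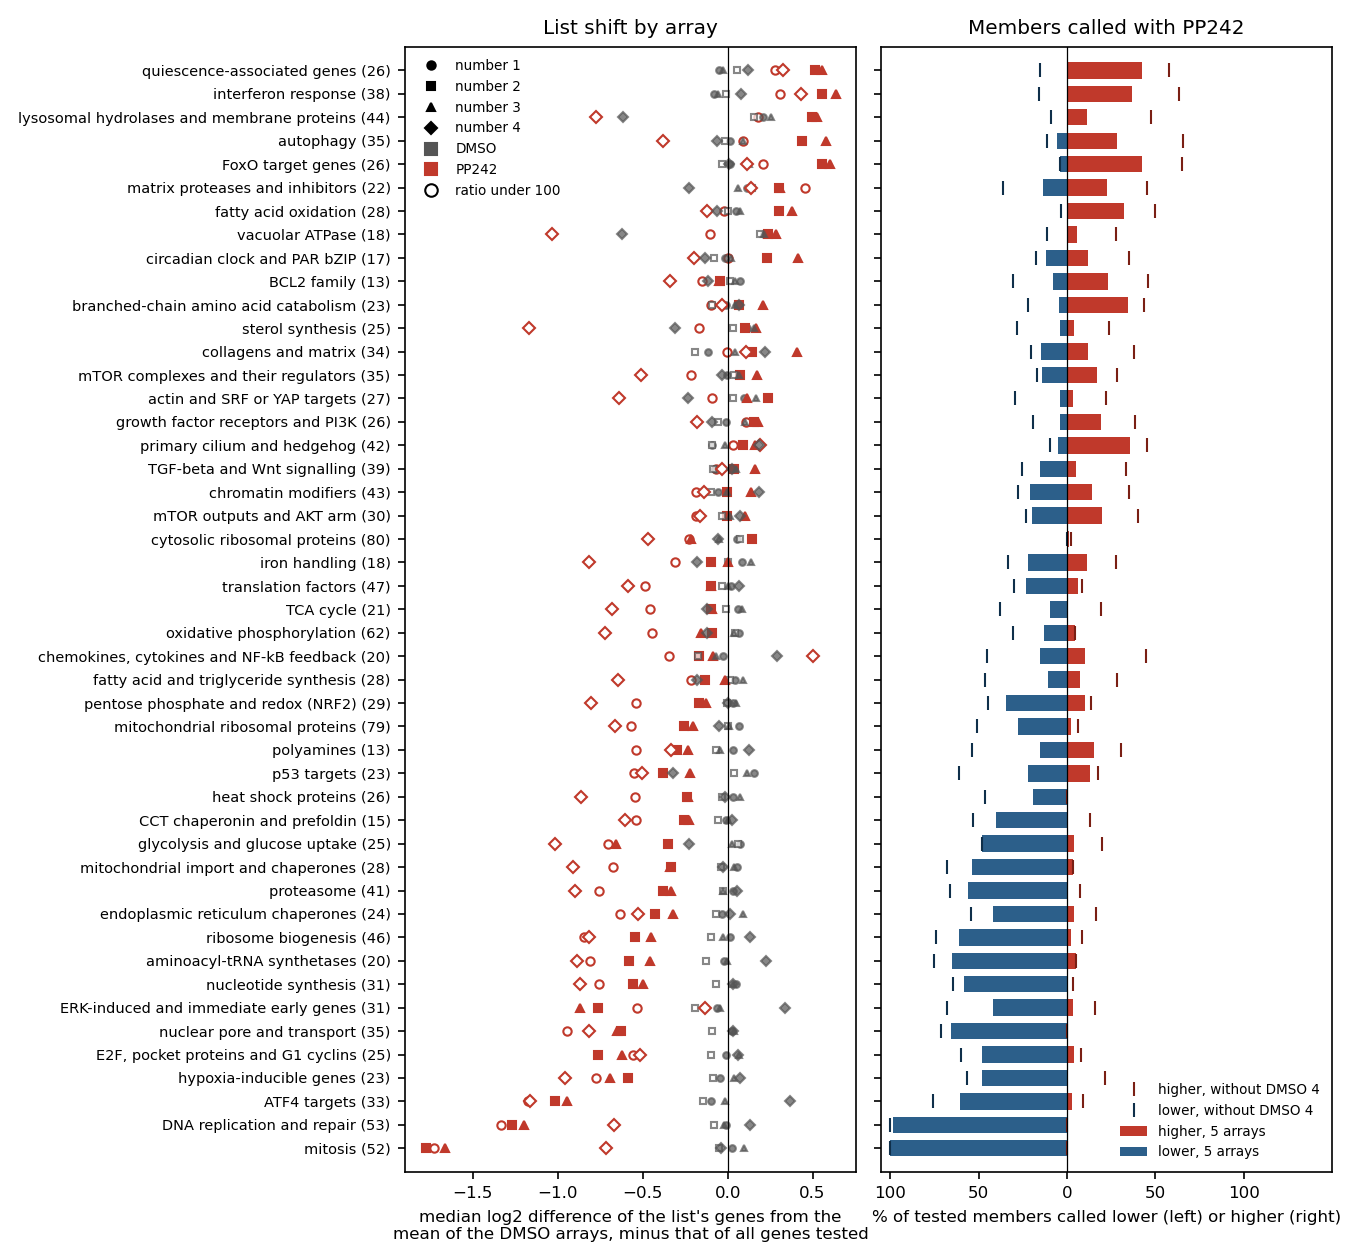
Left, for each list (tested genes in brackets), the median log2 difference of its genes from the mean of the DMSO arrays, minus that of all genes tested, for each of the 8 arrays (grey DMSO, red PP242, a symbol for each number, open for arrays with a ratio under 100). Right, the percentage of tested members called lower (blue) or higher (red) on 5 arrays, with ticks for the same without the arrays numbered 4. The mitosis list lies at -1.66 to -1.78 on PP242 1 to 3, and the lysosome list lies below 0 on both arrays numbered 4.

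Outside the lists, the genes that rose with the lowest adjusted p were Creb3l4, a transcription factor held in the endoplasmic reticulum membrane, the ubiquitin ligase gene Fbxl20, Lrrc61, 1110032A03Rik and Oas1c, of the oligoadenylate synthetase family. Creb3l4 stood at -3.24, -3.22, -3.33 and -3.19 with DMSO and at -1.34, -1.11, -1.16 and -1.92 with PP242. The others changed by 1.98 ± 0.11, 1.94 ± 0.12, 1.90 ± 0.11 and 1.55 ± 0.10, and the Oas1 genes are near-identical copies, so the signal of Oas1c may include its neighbours. Among symbol stems the highest shares called higher were those of Arhgef (8 of 19, 42.1%), Tbc (10 of 27, 37.0%), Pex (6 of 17, 35.3%) and Pcdhb (7 of 20, 35.0%). Arhgef25 and the peroxisome gene Pex11g changed by 1.18 ± 0.09 and 1.52 ± 0.17.

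On the 5 arrays 318 genes that were not well above background on any DMSO array but on both PP242 arrays gave a bound above 1-fold. The other way round, not on either PP242 array but on all 3 DMSO arrays, there were 34. These conditions are unequal, since a rise needed 2 arrays and a fall 3. Probes well above background were also 60.4% and 60.5% on the PP242 arrays and 55.8% to 59.5% on the DMSO arrays. The 2 counts are therefore not a measure of rises against falls. The largest bounds upwards were in Fmo5, a flavin monooxygenase (at least 6.92-fold, adjusted p = 0.00388), 1700001F09Rik (at least 3.89-fold, adjusted p = 0.00623) and Hsd17b1, an oestradiol-forming dehydrogenase (at least 3.66-fold, adjusted p = 0.0158). Downwards they were in Sh2d1b1 (at least 5.88-fold, adjusted p = 0.0399), Evi2a (at least 4.59-fold, adjusted p = 0.0301) and Slc14a1, a urea transporter, which did not pass (adjusted p = 0.189). Of these 6, Fmo5 alone was also called on all 8 arrays. Each of the 6 passed the filter on the 5 arrays only through the group in which it is high, so its p rests on that selection.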

How the data were processed

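RNA of 12 NIH3T3 cultures was measured on 1-colour Agilent arrays of 45018 spots, 43379 of them for genes and 1639 controls. Per the file headers, the scanner images were read with Feature Extraction 10.5.1.1, whereas the submitters' processing notes name version 10.1. The deposited intensity values used here are its processed signals, on which the software had already corrected background. The authors' log2 value table, with no unit, centring or direction stated, had column medians of 8.54 to 8.56 and ranked the probes of each array as its scanner signals did (Spearman at least 0.99999). It served as an alternative.

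From the signals, log2 values minus the 75th percentile of each array over gene spots were computed. Flagged spots (1.88% on the 8 arrays) were left out and spots of a probe averaged, and the brightest probe stood for a gene. A gene was tested if well above background on at least 4 of 8 arrays, or 2 of 5. Of 26382 probes with a RefSeq accession, 24844 matched 1 symbol in RefSeq's tables; 16330 probes kept their accession or design name. The fits used limma 3.58.1 (lmFit, eBayes) in R 4.3.3, two-sided, with Benjamini-Hochberg adjustment. On data simulated at a log2 change of 1, limma recovered 35% of changed genes for 8 arrays and 49% for 5, and at a change of 2, 74% and 78%. In the simulation 100 genes were changed at each size, among 18132 genes for 8 arrays and 18438 for 5. That is a far smaller share than was called in the data, and the adjustment depends on this share. The noise was independent between arrays, without the deviations that the arrays numbered 4 share. These rates therefore do not carry over to the fits above. Figures and motif searches used Python 3.11.15, pandas 2.3.3 and matplotlib 3.10.9.

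Groups came from the titles. The groups and lists were chosen with earlier results of these data known. Of 1689 list entries, 1573 were tested. Genes were named by rule: the 6 largest rises and falls, bright on all 8 arrays and not overlapping; up to 4 called and 2 bright uncalled genes a list; any gene of the mTOR list; genes of the 4 most changed symbol stems a direction; the 5 lowest p outside lists; the 3 largest bounds; and 3 genes of opposite sign on 8 arrays. Acta2, Akt2, Asns, Ctla2a, Ezh2, Lum, Mcm5, Postn, Stat2 and the markers of other cell types fall outside it and were chosen after their values were seen. P-values compare a difference with the spread between samples of a group, which limma estimates partly across genes. On 5 arrays that spread also includes the 3 rapamycin arrays.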

Additional observations from a re-analysis of the deposited data

Results flagged for a closer look

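In 2 genes and 1 list the level on 1 array lay far from the other 3 of its group. The gap was above Dixon's critical value for 4 samples, which chance exceeds in about 1 of 20 groups. Many genes and lists were examined by this rule, without adjustment for their number, so a few such gaps can arise by chance. These gaps alone therefore do not show that an array was unusual. Egr1 was at 1.37 on PP242 4, above the other PP242 arrays, which were near 0. The mitosis list was at -0.72 on PP242 4, a smaller fall than the -1.66 to -1.78 on the other PP242 arrays. PP242 4 had the lowest ratio of the 75th to the 25th percentile of the 8 arrays (13.6) and also carries the number 4, and the part of either in these values was not tested. Inca1 was at -5.09 on DMSO 2, above the other DMSO arrays, and the ratio of that array was 51.1.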

How the results depend on the processing

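Each comparison was repeated under 24 other settings, and no gene called in both a main fit and an alternative changed sign between them. On 8 arrays 4021 genes were called. The count was 0 with median centring (1392 at an unadjusted p under 0.05), 2084 with quantile normalisation (53.1% of them higher, against 40.8%), 2336 with the median signal without background subtraction (51.1% higher), 2517 with normexp (49.9% higher), 1761 without a filter, 1518 with slide as a block, 11317 with array weights and 256 with all 12 arrays sharing the spread. On 5 arrays 5321 were called, with 1760 for slide as a block, 9415 with array weights and 39.1% higher, against 50.1%, with median centring. Median centring moved the median of all genes on 8 arrays from 0.13 to -0.71. With alternatives chosen after seeing the data, leaving out the arrays numbered 4 gave 6730 on 8 arrays and 9550 on 5, and number 4 as a block gave 6040 and 8767.

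Leaving out 1 array at a time gave 2067 (without DMSO 1) to 5385 (without PP242 4) on 8 arrays, with 2274 without DMSO 3 and 2322 without PP242 1. On 5 arrays it gave 2003 (without PP242 3) to 6338 (without rapamycin 4), with 2210 without PP242 2. There the lone PP242 array is assumed to vary like the other groups. The replicate block gave 2653 calls on 8 arrays and 4667 on 5. Over the genes tested and unflagged on all 8 arrays, the deviations of same-numbered DMSO and PP242 arrays from the means of their groups of 4 correlated at r = -0.24, -0.71, 0.49 and 0.02 for numbers 1 to 4, so the numbers were not taken as pairs. For number 4 this differs from the 0.702 given above, which covers brighter genes and deviations from arrays with a ratio of at least 100.

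Of 139 genes named above and called on 5 arrays, 99 kept call and direction in every setting, and of 113 called on 8 arrays, 0 did, since median centring called none. The lists for mitosis, replication, ATF4 targets, nuclear pores, proteasome, ribosome biogenesis and interferon kept the sign of their median relative to all genes in all settings of both comparisons. The lysosome list kept it in 8 of 24 on 8 arrays, and the cytosolic ribosome list in 15 of 24 on 5 and 19 of 24 on 8. Log2 fold changes that turned on 8 arrays were, with median centring, Eif4a2 -0.21, Gstt1 -0.10, Nfkbia -0.055, Stat2 -0.16 and Ulk2 -0.10. With quantile normalisation Castor1 was at -0.080, Gstt1 at -0.60 and Per3 at -0.26. Gstt1 and Per3 were at -0.085 and -0.028 with the median signal, at -0.00248 and -0.00333 with normexp, and at -0.17 and -0.097 with the deposited table. Hsp90ab1 (0.29) and Slc38a2 (0.24) turned with array weights. On 5 arrays Lum turned to 1.49 with the replicate block, 1.501 without the arrays numbered 4 and 1.48 with number 4 as a block, and Acta2 to -0.45 without them. The cause of these differences was not tested. Signal over background limits the dim genes most: on the 3 arrays with a ratio under 100 their levels are raised.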
